A study of Mus musculus with 6 samples.

Results

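The genes described here are the interferon response and innate sensing genes of the mouse genome that were printed on the array. They were chosen by name alone, as the probes whose gene name in the scanner files begins as one of the interferon regulatory factors (Irf), interferon-induced genes (Ifi, Ifih1, Ifit, Ifitm, Isg, Oas, Gbp, Mx), Toll-like receptors (Tlr) or interferon receptors (Ifnar, Ifngr), or as one of a few single genes such as Stat2, Trim25 and Ddx58. The rule found 107 probes for 69 genes, of 41174 probes for 27947 genes on the array. The names of 4 of these genes are shared only by spelling: Irf2bp1 and Irf2bp2 encode corepressors that bind IRF2, and Aen (named Isg20l1 in the files) and Isg20l2 encode nucleases.

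Total RNA was measured on 6 one-colour arrays, 3 of mouse embryonic stem (mES) cells and 3 of epiblast stem cells (EpiSC), the pluripotent lines that resemble the later, postimplantation epiblast. The mES cells were the lines ESF122, ESF175/1 and ESF58/2 (replicates 1, 2 and 3), cultured with LIF, and the source label of the last names it ESF58/1. The EpiSC were line EpiSC-5 (replicate 1) and line EpiSC-7 at passage 20 and at passage 25 (replicates 2 and 3), cultured with FGF2, so that 2 of the 3 EpiSC arrays share a line. Both groups grew on irradiated mouse embryonic fibroblasts, in DMEM with knockout serum replacement, and the labels record no interferon, virus or other stimulus. The fibroblasts are a second source of RNA in every sample.

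Each level is a log2 signal relative to the 75th percentile of its array, levels are given in the order of replicates 1, 2 and 3, and a difference is EpiSC minus mES on that scale with limma's standard error. A level compares arrays for 1 gene and is not comparable between genes. In these bulk samples, fewer cells of a type and less RNA per cell cannot be told apart. All 6 mES-defining genes fell and all 6 EpiSC-defining genes rose past the threshold, an adjusted p under 0.05, among them Zfp42 (-10.53) and Fgf5 (7.74), while none of 4 genes shared by both pluripotent states passed it. Between 66.3% and 75.4% of probes were well above background on each array.

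Col1a1, the fibrillar collagen gene used here to read fibroblast RNA, differed widely within both groups. It was at 4.46, 1.88 and 5.60 in mES and at 5.25, 4.41 and 1.23 in EpiSC, so that mES replicate 2 and EpiSC replicate 3 were far below the others. Of 25 fibroblast genes, 24 or 25 were above background on every array. The median level of those tested was 0.99, -0.49 and 1.95 in mES and 1.52, 1.18 and -0.96 in EpiSC. Their summed signal ranged from 63.6 to 200.2 times the 75th percentile in mES and from 149 to 249 in EpiSC. The highest mES sum, on replicate 3, leaves out Col1a2, which had no value there. The lowest EpiSC sum, on replicate 3, rests largely on Vim (6.07), Tagln (5.27) and Acta2 (3.99). Tagln (1.70) and Acta2 (0.90) themselves rose past the threshold. The 14 leukocyte genes were fainter, with 11 to 14 of them above background and sums of 3.14 to 6.68 in mES and 1.64 to 4.46 in EpiSC. Ptprc, which encodes the pan-leukocyte antigen CD45, was above background on 1 EpiSC array and on 0 mES arrays. Of 6 endothelial genes, 3 to 5 were above background on an array, with sums of 0.25 to 0.37 in mES and 0.20 to 0.77 in EpiSC. The part of these cells in the results was not tested except where an alternative is named.

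Cells meet viruses and microbes with sensors: RIG-I (encoded by Ddx58) and MDA5 (Ifih1) read RNA in the cytosol, and Toll-like receptors read microbial molecules at the surface and in endosomes. Type I interferon then signals through IFNAR1 and IFNAR2, JAK1 and TYK2 to a complex that holds STAT2 and IRF9 and binds the interferon-stimulated response element (ISRE), whereas type II interferon signals through IFNGR1 and IFNGR2 to factors that bind the gamma-activated site (GAS). Pluripotent cells are known for a weak interferon response and for steady expression of some antiviral genes, including the IFITM family.

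The ISRE core was searched as the letters GAAANNGAAA and the GAS core as TTCNNNGAA, on both strands and with overlaps allowed, in RefSeq promoters of the build GRCm38.p6 that run from 250 bases before to 50 after a start. Of the 69 genes, 57 matched the table. An ISRE core was found for 20 of the 57 (35.1%), beside 3.99% of 27025 genes in the table, and a GAS core for 17 (29.8%), beside 9.55%. Among genes that rose in EpiSC, 5 of 8 held an ISRE core, as did 3 of 7 that fell and 11 of 37 that passed in neither direction. For the GAS core these counts were 1 of 8, 1 of 7 and 12 of 37. The 250 bases before the start of 5 genes are shown because these genes changed in opposite directions and yet all hold an ISRE core, given in capitals. Gbp2 (chr3:142620413-142620662, plus strand), Gbp3 (chr3:142559794-142560043, plus strand) and Isg15 (chr4:156200819-156201068, minus strand) were higher in EpiSC, and Oas1c (chr5:120812515-120812764, minus strand) and Stat2 (chr10:128270248-128270497, plus strand) were lower.
Gbp2: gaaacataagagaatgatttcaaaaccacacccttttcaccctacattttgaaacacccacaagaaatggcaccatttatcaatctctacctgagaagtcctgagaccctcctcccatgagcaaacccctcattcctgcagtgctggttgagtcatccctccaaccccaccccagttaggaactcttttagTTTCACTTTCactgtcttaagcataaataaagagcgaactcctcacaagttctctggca
Gbp3: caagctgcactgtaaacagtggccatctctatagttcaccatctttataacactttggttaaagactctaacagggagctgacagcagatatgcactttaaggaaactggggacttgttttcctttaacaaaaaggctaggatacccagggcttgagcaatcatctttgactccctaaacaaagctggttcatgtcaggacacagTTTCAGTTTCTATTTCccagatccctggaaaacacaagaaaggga
Isg15: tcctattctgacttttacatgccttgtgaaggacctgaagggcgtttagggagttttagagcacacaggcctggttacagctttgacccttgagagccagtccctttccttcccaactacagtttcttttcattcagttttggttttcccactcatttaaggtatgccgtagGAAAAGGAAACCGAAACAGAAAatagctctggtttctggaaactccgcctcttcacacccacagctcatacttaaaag
Oas1c: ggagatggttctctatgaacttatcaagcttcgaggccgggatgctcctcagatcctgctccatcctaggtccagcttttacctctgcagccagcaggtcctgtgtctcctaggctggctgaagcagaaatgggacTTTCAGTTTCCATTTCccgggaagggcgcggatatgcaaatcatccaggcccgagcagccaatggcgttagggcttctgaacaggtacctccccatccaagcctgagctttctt
Stat2: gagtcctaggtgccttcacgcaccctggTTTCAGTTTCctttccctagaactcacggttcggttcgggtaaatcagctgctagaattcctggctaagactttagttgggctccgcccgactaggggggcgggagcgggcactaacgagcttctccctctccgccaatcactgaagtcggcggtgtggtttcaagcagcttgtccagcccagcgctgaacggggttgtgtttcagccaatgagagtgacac
In Gbp2 and Stat2 the capitals are 1 match, read on the opposite strand from the gene. They cover 2 overlapping matches in Gbp3 and Oas1c and 3 in Isg15. As the genes were chosen for holding the core, its presence in all 5 is no result, and a match of letters does not show that a factor binds there.

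Of the 69 genes, 62 could be tested, and 8 were higher and 8 lower in EpiSC past the threshold. Among those higher, Gbp2b, Irf2 and Tlr3 entered the fit only through the EpiSC arrays. The 16 genes are 25.8% of those tested, beside 26.5% of all 20136 genes tested, and the directions compare with 11.8% of all genes called higher and 14.6% called lower. The levels of the EpiSC and mES arrays did not overlap for 29 of the 62 (46.8%), beside 48.7% of all genes. The median difference was -0.26, and it was -0.11 over all genes. As a whole the interferon genes were therefore called about as often as any other gene, and the differences lay in which of them changed and in which direction. Not tested were Irf4, Oas1h, Tlr1, Tlr4, Tlr6, Tlr7 and Tlr8, which were not well above background on all 3 arrays of either group. Tested one by one, 24 of 95 member probes passed (12 higher and 12 lower), beside 26.1% of all probes, and no gene had probes past the threshold in both directions. Gbp, Ifi200, Oas1, Ifitm and interferon alpha genes each belong to families of near copies, and a probe's signal may hold RNA of a close relative.

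**Figure D1:**
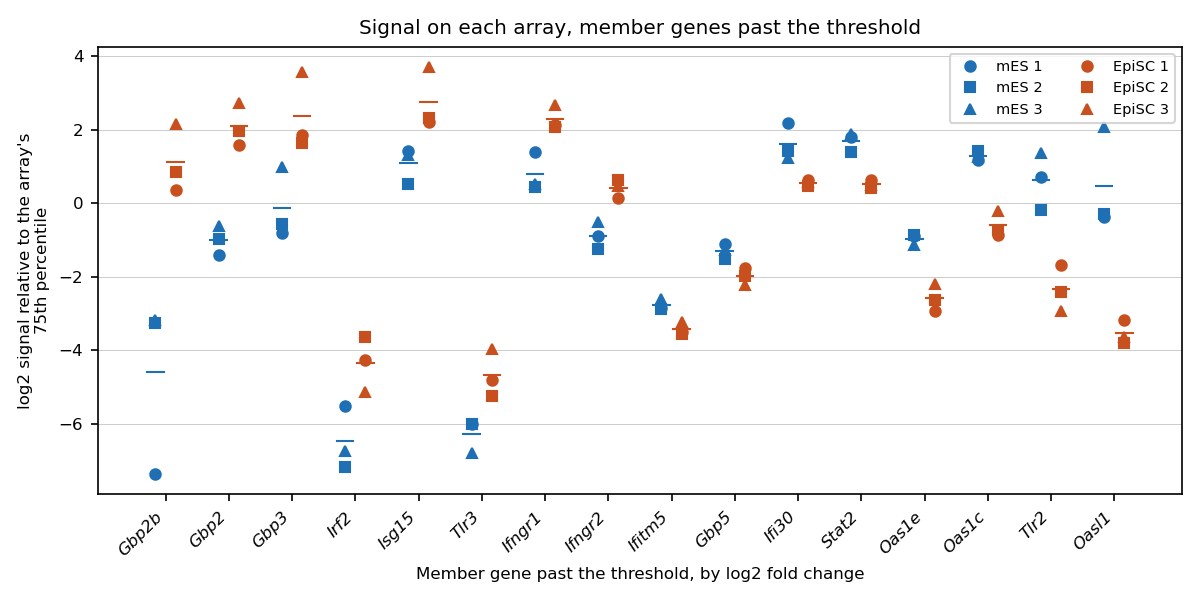
The y axis gives the log2 signal relative to the array's 75th percentile for the 16 interferon and sensing genes past the threshold, ordered by log2 fold change, with 1 point per array and a line at each group mean. In every one of these genes the 3 EpiSC points lie wholly above or wholly below the 3 mES points, with Gbp2b the widest apart (5.73) and Oasl1 the furthest in the other direction (-4.01).

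The array slot was the one technical factor that both groups shared. The third mES array and the third EpiSC array were hybridised at position 1, and the remaining 4 arrays at position 4. With the position as a block, 10 genes were higher and 9 lower (28.7% of all genes called), and 15 of the 16 calls were kept. Within position 4, with 2 arrays in each group, 4 were higher and 11 lower of 63 tested, beside 12.6% of all genes called, with 7 of the 16 calls kept, and position 1 held 1 array of each group and has no test. Each slide held a single group.

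The receptors for type II interferon were higher in EpiSC. Ifngr1, the ligand-binding chain, was at 1.38, 0.46 and 0.54 in mES and at 2.13, 2.08 and 2.66 in EpiSC, a difference of 1.50 ± 0.31 (limma, adjusted p = 0.0169). Ifngr2, the signalling chain, was at -0.90, -1.25 and -0.50 in mES and at 0.16, 0.64 and 0.46 in EpiSC, a difference of 1.30 ± 0.25 (adjusted p = 0.013). For both chains every EpiSC array was above every mES array. The type I receptor chains did not pass. Ifnar1 was at 0.40, 0.39 and 0.48 in mES and at 0.72, 0.55 and 1.04 in EpiSC, a difference of 0.35 ± 0.18 (adjusted p = 0.196) with no overlap. Ifnar2 was at -0.55, -0.64 and 0.61 in mES and at 0.06, 0.28 and 0.08 in EpiSC, and mES replicate 3 was the highest of the 6 arrays. Whether the type I and type II chains differed from each other was not tested.

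Among the transcription factors, Stat2, the partner of IRF9 in the ISRE complex, fell. It was at 1.79, 1.40 and 1.88 in mES and at 0.64, 0.42 and 0.51 in EpiSC, a difference of -1.17 ± 0.19 (limma, adjusted p = 0.00763). The 3 EpiSC levels lay within a narrow range below every mES level. Irf9, the DNA-binding part of the complex, was at 1.07, 0.92 and 1.15 in mES and at 0.50, -0.46 and 0.73 in EpiSC (-0.79 ± 0.32, adjusted p = 0.118), with EpiSC replicate 2 well below the other arrays.

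Irf2, a factor that competes with IRF1 at its sites, rose, although from below the detection limit. It was not well above background on any mES array (-5.51, -7.19 and -6.73) and was so on all 3 EpiSC arrays (-4.26, -3.64 and -5.12). The difference was 2.13 (limma, adjusted p = 0.0314) or 4.39-fold on this scale. As the probe entered the fit only through the EpiSC arrays, where it is high, the p-value gives the rise no separate support. The difference does not carry over to another background correction (normexp), with which it was 0.23 and did not pass. Irf1, a rapidly induced activator, was at 3.70, 3.34 and 2.90 in mES and at 3.31, 4.29 and 3.60 in EpiSC, and Irf3, the factor activated by the sensors, was at 2.82, 2.55 and 1.85 and at 2.40, 2.46 and 2.02. Irf7, which amplifies type I interferon production, was at -0.85, -1.86 and 0.25 in mES and at -0.60, -1.43 and 0.29 in EpiSC. For Irf1, Irf3 and Irf7 the groups overlapped and no difference passed (0.42, -0.11 and 0.24). A second Irf3 probe gave -0.90 and passed (adjusted p = 0.0118 over probes), so that the probes of this gene disagreed.

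The cytosolic RNA sensors differed in opposite directions without passing the threshold. Ifih1 was at -1.65, -2.70 and -1.41 in mES and at -0.55, -0.66 and 1.06 in EpiSC, a difference of 1.87 ± 0.55 (limma, adjusted p = 0.0504). Ddx58 was at 1.38, 1.09 and 0.55 in mES and at -0.48, -0.65 and 0.53 in EpiSC, a difference of -1.20 ± 0.38 (adjusted p = 0.0583). All EpiSC arrays were above all mES arrays for Ifih1 and below them for Ddx58, where EpiSC replicate 3 came closest to the mES arrays. Both Ifih1 probes passed in the fit over probes (1.87 and 2.71), and none of the 4 Ddx58 probes did. The first Ifih1 probe is the one that represents the gene above. The second was well above background on 3 arrays only, with mES levels of -6.73, -7.30 and -6.58. Neither probe therefore adds separate support. Trim25, a ubiquitin ligase that acts on RIG-I, was at 4.34, 4.52 and 4.78 in mES and at 1.47, -0.73 and 4.33 in EpiSC (-2.86 ± 1.17, adjusted p = 0.115). EpiSC replicate 3 was level with the mES arrays while the other EpiSC arrays were far below, and without that replicate the difference was -4.18 and passed. A second Trim25 probe gave -4.30 and passed over probes (adjusted p = 0.0282).

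Of the Toll-like receptors, 4 of 9 could be tested, 1 rose and 1 fell, beside 11.8% of all genes called higher and 14.6% called lower. Tlr2, the receptor for bacterial lipoproteins, was at 0.73, -0.19 and 1.37 in mES and at -1.67, -2.40 and -2.93 in EpiSC, a difference of -2.97 ± 0.48 (limma, adjusted p = 0.00756). Tlr3, the endosomal receptor for double-stranded RNA, was not well above background on any mES array (-6.01, -6.01 and -6.81) and was so on all EpiSC arrays (-4.82, -5.24 and -3.98), at least 2.89-fold higher on this scale (adjusted p = 0.0274). Tlr3 too entered the fit only through the EpiSC arrays, so its p-value gives the rise no separate support. With the normexp correction the difference was 0.099 and did not pass, so that this bound holds only for the scale used. Tlr9 (0.39 ± 0.16) and Tlr5 (-0.37 ± 0.17) had groups that did not overlap and did not pass. Leukocytes also express Tlr2. In the leukocyte list the lysosomal genes Laptm5 (-3.34) and Cd68 (-2.95) fell and the other 11 tested genes did not pass, and the part of leukocyte RNA in the Tlr2 result was not tested.

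The guanylate-binding proteins, large GTPases that interferon gamma induces strongly, held the largest rise. Gbp2b (named Gbp1 in the files) was at -7.37, -3.25 and -3.18 in mES, above background on 2 of the 3, and at 0.36, 0.86 and 2.16 in EpiSC (5.73 ± 1.18, limma, adjusted p = 0.0165). Like Irf2 and Tlr3, Gbp2b entered the fit only through the EpiSC arrays, where it is high. Its p-value therefore gives the rise no separate support. Gbp2 was at -1.41, -0.97 and -0.63 in mES and at 1.58, 1.96 and 2.74 in EpiSC, a difference of 3.10 ± 0.35 or 8.56-fold (adjusted p = 0.00258). For both genes the gap between the groups was wider than the spread within either, except that for Gbp2b the mES replicate 1 array stood far below the other mES arrays. Gbp3 (Gbp4 in the files) was at -0.81, -0.55 and 0.98 in mES and at 1.87, 1.65 and 3.57 in EpiSC (2.49 ± 0.67, adjusted p = 0.0373). Gbp5 went the other way, from -1.11, -1.53 and -1.26 in mES to -1.77, -1.98 and -2.22 in EpiSC (-0.69 ± 0.20, adjusted p = 0.0467). All 4 tested members that the name rule found were past the threshold, 3 higher and 1 lower, beside 26.5% of all genes called in either direction. This does not hold for the whole family. Of the Gbp genes tested under older names in the files, Gbp7 rose past the threshold and Gbp4, Gbp6, Gbp8 and Gbp9 did not pass. The Gbp2b difference was 4.35 without mES replicate 1 and 3.82 with the normexp correction, and that of Gbp3 was 1.88 without EpiSC replicate 3.

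The OAS family, enzymes and enzyme-like proteins that sense double-stranded RNA, lay mostly in the opposite direction. Of 11 tested members, 10 had a negative difference, beside 56.5% of all genes, and the family median was -1.01. Past the threshold 3 fell (27.3% of the 11), beside 14.6% of all genes called lower and 26.5% called in either direction. Oasl1, which limits the translation of IRF7, was at -0.37, -0.29 and 2.08 in mES and at -3.19, -3.79 and -3.64 in EpiSC, a difference of -4.01 ± 0.66 or 16.1-fold (limma, adjusted p = 0.0081). Oas1c was at 1.19, 1.42 and 1.25 in mES and at -0.86, -0.73 and -0.21 in EpiSC (-1.89 ± 0.22, adjusted p = 0.00271). Oas1e was at -0.90, -0.86 and -1.13 in mES and at -2.94, -2.63 and -2.20 in EpiSC (-1.63 ± 0.23, adjusted p = 0.00503). For these 3 genes the groups were well apart, and for Oas1c and Oas1e the mES arrays lay close together. Oas2 (-1.63 ± 0.53, adjusted p = 0.0633), Oas3 (-1.26 ± 0.53) and Oas1f (-1.01 ± 0.35) did not pass, although a second Oas3 probe did (-1.96). Oasl2 was the one tested member with a positive difference (0.80 ± 0.58, adjusted p = 0.329). Under other scalings of the arrays the count of 10 negative differences was the same.

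Isg15, the ubiquitin-like protein joined to targets during the interferon response, rose. It was at 1.43, 0.52 and 1.31 in mES and at 2.23, 2.31 and 3.70 in EpiSC, a difference of 1.66 ± 0.46 or 3.16-fold (limma, adjusted p = 0.0415), with EpiSC replicate 3 the highest array and mES replicate 2 the lowest. Isg20, an exonuclease, did not pass (1.08 ± 0.68), nor did Mx1 (-1.13 ± 0.40) or Mx2 (1.28 ± 0.52), GTPases that block viruses. The IFIT proteins bind viral RNA, and none of 3 passed. Ifit1 was at -0.24, -1.46 and 0.62 in mES and at -0.14, -0.96 and 1.40 in EpiSC, and Ifit3 at 0.87, -1.48 and 2.27 and at 1.43, 0.53 and 2.26. For both genes the range within each group was wider than the difference between the group means (0.46 for Ifit1 and 0.85 for Ifit3).

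The IFITM proteins, which hinder viral entry, had negative differences for 6 of 6 members, from -0.75 to -0.27, beside 56.5% of all genes. Of the 6, 1 fell, a share near the 14.6% of all genes called lower. Ifitm5, mainly known from bone, was at -2.85, -2.88 and -2.59 in mES and at -3.49, -3.55 and -3.23 in EpiSC (-0.65 ± 0.18, limma, adjusted p = 0.0395). Ifitm1 was at 1.88, 2.07 and 2.13 in mES and at 1.00, 1.65 and 1.42 in EpiSC (-0.67 ± 0.21, adjusted p = 0.0614), and Ifitm2 at 2.64, 2.92 and 3.18 and at 2.08, 2.48 and 1.93 (-0.75 ± 0.23, adjusted p = 0.054). Neither overlapped between the groups. Ifitm3 was at 5.20, 4.20 and 4.17 in mES and at 3.14, 4.65 and 4.60 in EpiSC, with EpiSC replicate 1 the lowest and an overlap of the rest. A second Ifitm2 probe passed over probes (-1.03, adjusted p = 0.0281). Ifi30, a lysosomal thiol reductase of antigen processing, fell from 2.19, 1.44 and 1.23 in mES to 0.63, 0.48 and 0.58 in EpiSC (-1.05 ± 0.27, adjusted p = 0.0337).

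**Figure D2:**
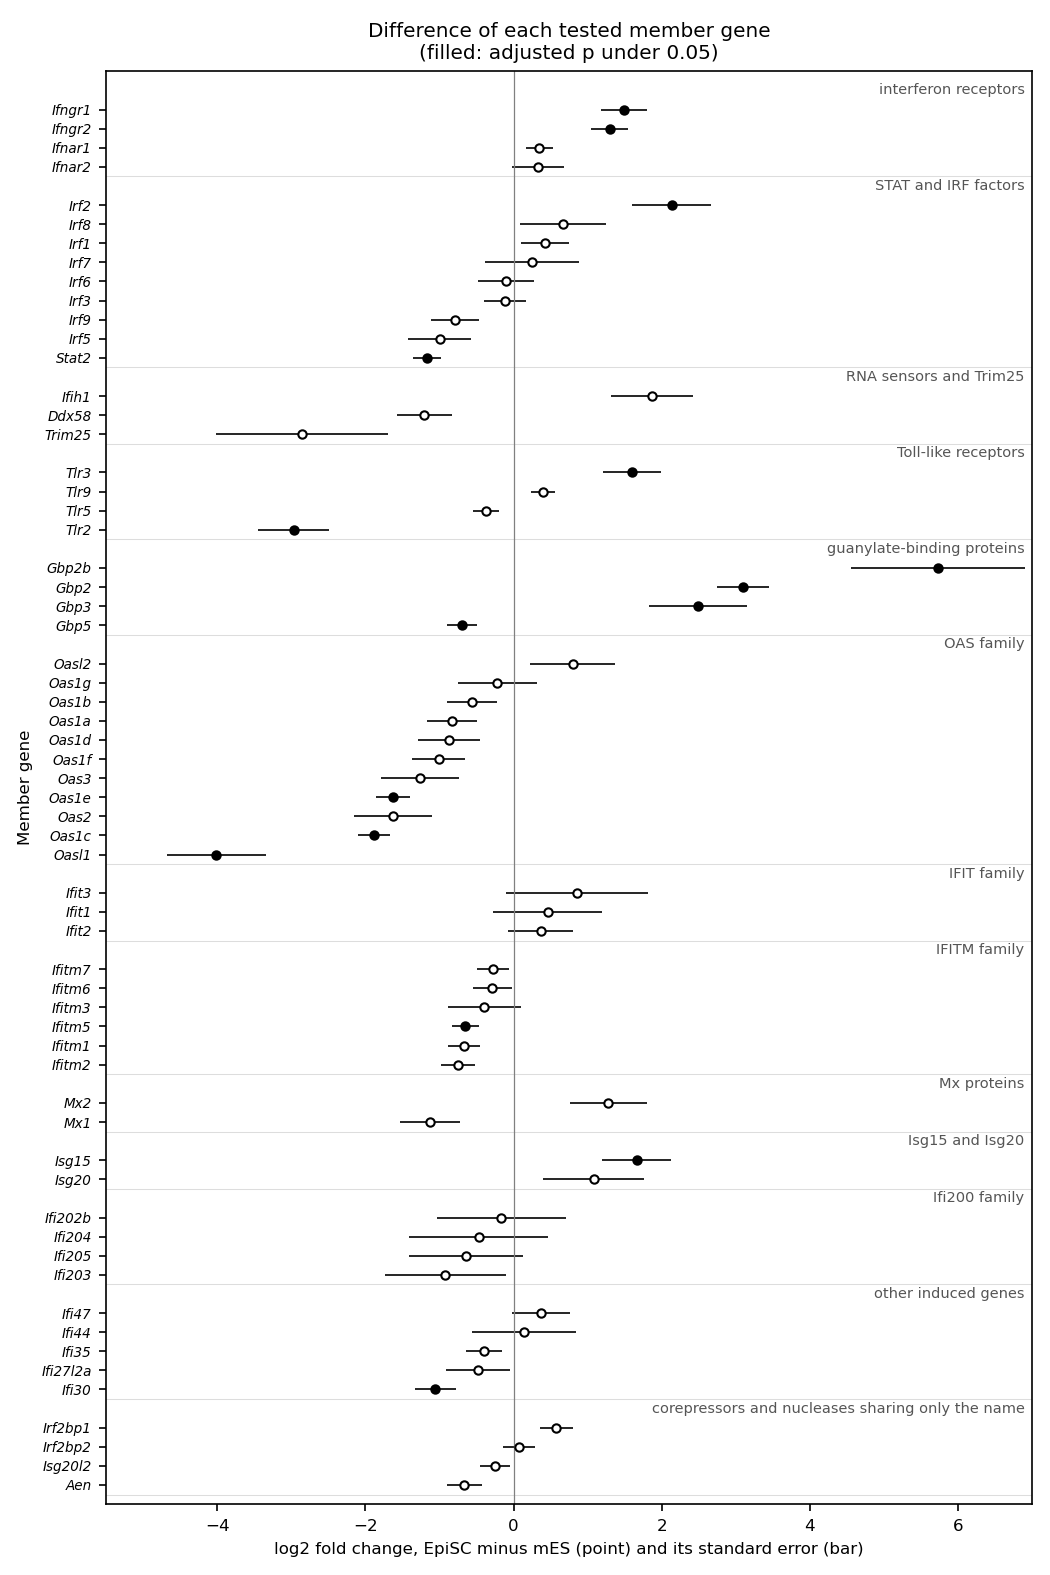
The x axis gives the log2 fold change, EpiSC minus mES, of 61 of the 62 tested genes with its standard error as a bar, grouped by role on the y axis, and filled points have an adjusted p under 0.05. The receptors lie right of 0, 3 of 4 guanylate-binding proteins lie far right, 10 of 11 OAS genes lie left, and the bars of the IFIT and Ifi200 families are wide.

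How firmly these calls held depended on the gene. With each array left out in turn, 7 of the 16 passed in all 6 fits: Gbp2, Ifngr2, Oas1c, Oas1e, Oasl1, Stat2 and Tlr2, with Ifngr2 nearest the threshold (adjusted p = 0.0497 without EpiSC replicate 3). Of these 7, Stat2 was lost within position 4, and Ifngr2 and Oasl1 were lost without both mES replicate 2 and EpiSC replicate 3. Gbp2b was lost without EpiSC replicate 3 (adjusted p = 0.0628) and Ifngr1 without EpiSC replicate 3 or mES replicate 2 (up to 0.0592). Irf2 and Ifi30 passed in 2 of the 6 fits and Gbp3 and Tlr3 in 1, and Isg15, Gbp5 and Ifitm5 in 0. Without mES replicate 2 the counts were 3 higher and 5 lower (16.7% of all genes called), and without EpiSC replicate 1 they were 4 and 5 (16.0%). Without EpiSC replicate 3 they were 3 and 12 (14.2% of all genes called), where Ddx58, Irf5, Oas1a, Oas1b, Oas1f, Oas3 and Trim25 joined the genes that fell. Without mES replicates 1 and 3 and EpiSC replicate 2, left out one at a time, 5, 6 and 5 were higher and 6, 6 and 7 lower. In these fits 17.7%, 23.6% and 22.8% of all genes were called in either direction. With the EpiSC-7 arrays averaged, since they share a line, 7 were higher and 9 lower (21.4% of all genes called). In that fit Gbp3 (adjusted p = 0.0503), Gbp5 (0.0928), Ifi30 (0.0799) and Ifitm5 (0.0547) were lost and Ddx58, Irf5, Oas1f and Trim25 passed as lower.

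Col1a1 was lowest on mES replicate 2 and EpiSC replicate 3, and several interferon genes were extreme on the same arrays. With Col1a1 as a covariate 6 genes were higher and 7 lower (21.8% of all genes called), and Gbp3, Gbp5, Ifi30, Ifitm5 and Isg15 were lost. Without both arrays, an alternative chosen after the data were seen, 1 gene was higher (Gbp2, 2.79) and 6 were lower, and 7.41% of all genes passed, with 2 arrays left in each group. Set side by side by their Col1a1 levels, the arrays gave the following differences for single genes. At the low level, EpiSC replicate 3 minus mES replicate 2 was 3.71 for Gbp2, 3.18 for Isg15, 3.74 for Ifit3 and 2.15 for Irf7. At the higher levels, EpiSC replicate 2 minus mES replicate 1 was 3.38 for Gbp2, 0.88 for Isg15, -0.34 for Ifit3 and -0.57 for Irf7, and EpiSC replicate 1 minus mES replicate 3 was 2.21, 0.92, -0.84 and -0.85. Ifit3 and Irf7 were higher in EpiSC in 1 of the 3 pairings. Gbp2 and Isg15 do not overlap between the groups and are higher in any pairing.

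The Ifi200 family, nuclear and cytosolic proteins of which several bind DNA, followed Col1a1 most closely in order. Ifi204 was at 0.00, -2.26 and 0.76 in mES and at 0.33, -0.94 and -2.28 in EpiSC, and Ifi202b at 0.86, -1.62 and 1.46 and at 1.08, -0.07 and -0.80. In both groups the arrays stood in the order of their Col1a1 levels for 4 of 4 members that the name rule found and that were tested. That order was found in mES for 14.1% and in EpiSC for 18.4% of all genes. Ifi209, a gene of this family with an older name in the files, kept the order in EpiSC (-3.61, -4.26 and -5.11) but not in mES (-2.37, -5.83 and -2.81). None of the 4 members differed between the groups past the threshold (differences from -0.92 to -0.17), and within position 4 all 4 differences turned positive. Over all 62 tested genes, 21 (33.9%) kept the Col1a1 order in mES and 7 (11.3%) in EpiSC. The mES replicate 2 array was the lowest of its group for 29 genes (46.8%, beside 26.5% of all genes). In EpiSC the array lowest in Col1a1 was instead the highest of its group for 34 genes (54.8%, beside 27.0% of all genes).

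**Figure D3:**
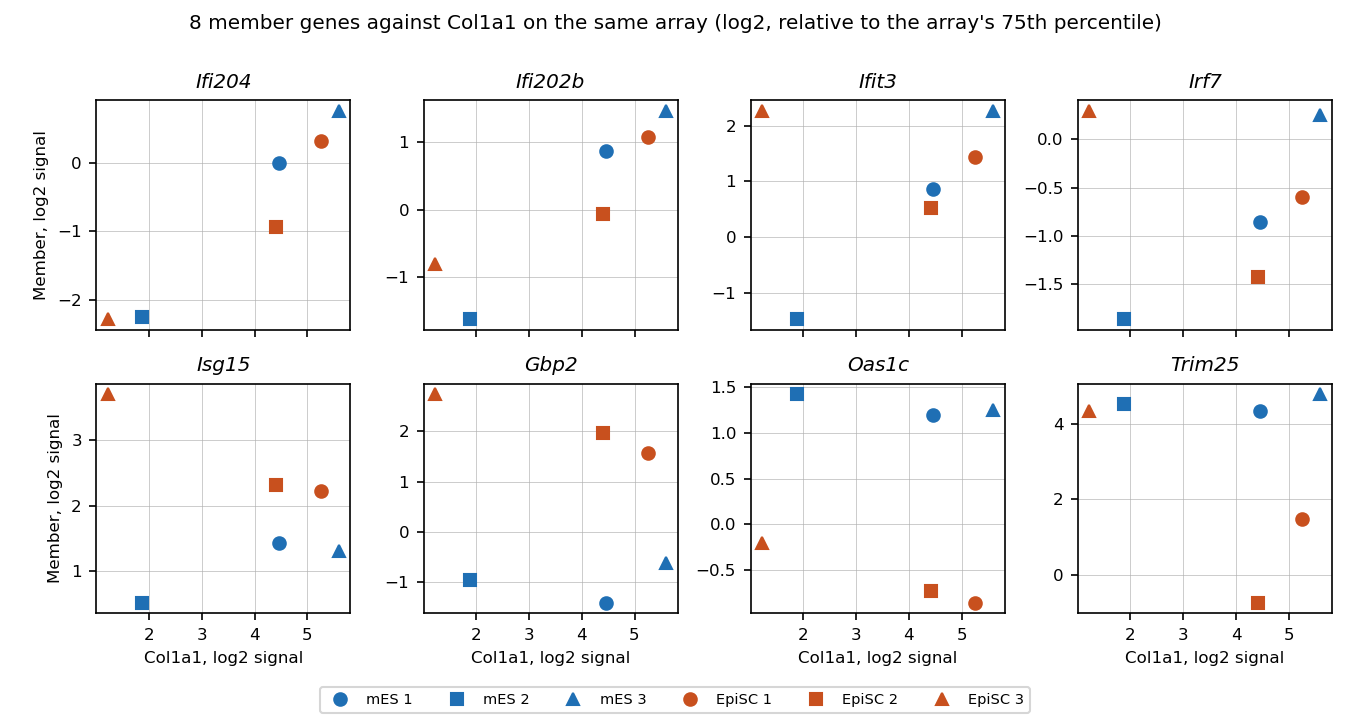
Each panel plots the level of 1 gene against that of Col1a1 on the same array, both as log2 signals relative to the 75th percentile, with 1 point per array. Ifi204 and Ifi202b are low on the 2 arrays lowest in Col1a1, Ifit3 and Irf7 are low on mES replicate 2 but not on EpiSC replicate 3, Gbp2 and Isg15 are higher on every EpiSC array, and Trim25 is low on EpiSC replicates 1 and 2 alone.

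The 2 passages of line EpiSC-7 differed in these genes more often than in genes at large. Of the 62, 22 (35.5%) were at least 2-fold higher at passage 25 than at passage 20, beside 3.82% of all genes, and 5 were at least 2-fold lower, beside 6.67% of all genes. The higher ones were Trim25, 7 of 11 OAS genes, Ddx58, Ifih1, Gbp2b, Gbp3, Ifit1, Ifit3, Irf5, Irf7, Irf9, Isg15, Isg20, Mx1, Mx2 and Tlr3. All 11 OAS genes were higher at passage 25 by some amount, with a median difference of 1.20. Of the higher genes Trim25 differed most, by 5.07 or 33.5-fold, followed by Ifit1 (2.36) and Gbp3 (1.93). The lower ones were Ifi203 (-1.94), Irf2 (-1.48), Ifi204 (-1.34), Ifi205 (-1.21) and Ifi27l2a (-1.04). Of 34 tested interferon-induced genes outside the name rule, 9 were at least 2-fold higher and 3 at least 2-fold lower, among the former the chemokine gene Cxcl10, which was at -0.52 at passage 20 and 2.28 at passage 25. Each passage is 1 array, so that these differences have no replicate check and no test. The passage, the slot on the slide (4 and 1) and the fibroblast RNA, of which 14 of 24 genes were at least 2-fold lower at passage 25, cannot be told apart here.

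**Figure D4:**
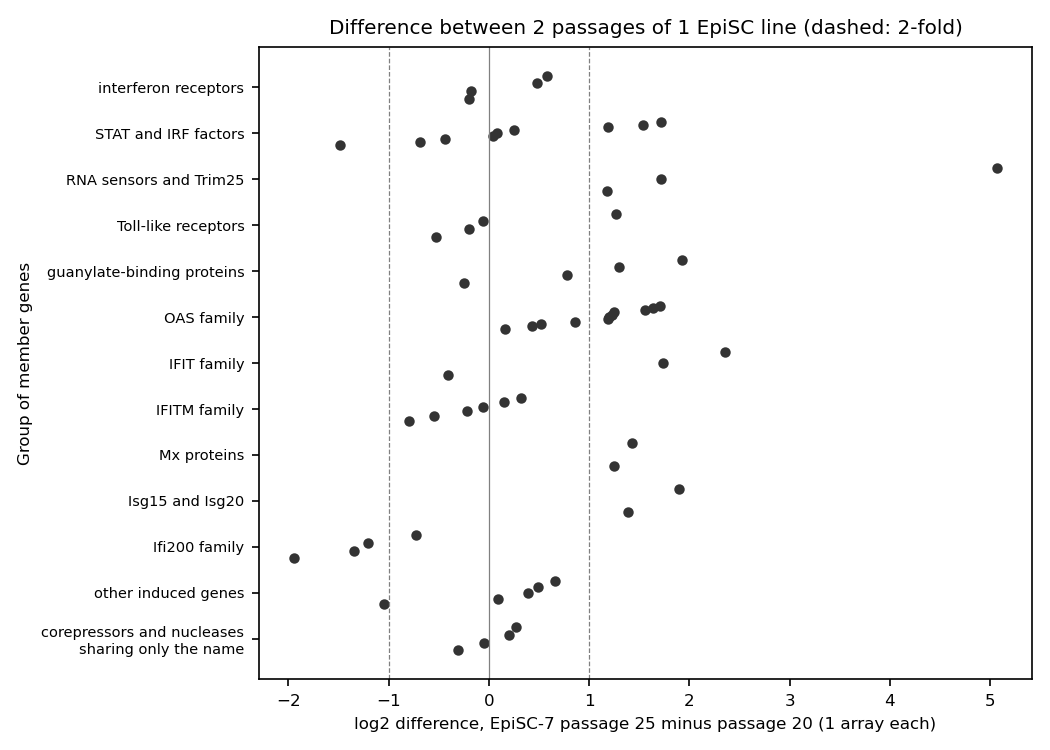
The x axis gives the log2 level at passage 25 minus that at passage 20 of line EpiSC-7, 1 array each, with 1 point per gene and the groups of genes on the y axis (offsets within a group only separate the points), and dashed lines mark 2-fold. All 11 OAS points and all 3 points of the RNA sensors and Trim25 lie right of 0, with Trim25 at 5.07, and the 4 Ifi200 points lie left of it.

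For 9 genes (14.5%, beside 2.75% of all genes), EpiSC replicates 1 and 2 were below every mES array and replicate 3 was not. They were Oas1a, Oas1b, Oas1d, Oas1f, Oas3, Irf5, Ifi35, Ifitm7 and Isg20l2. Oas1a was at 3.20, 2.99 and 2.72 in mES and at 1.86, 1.69 and 2.87 in EpiSC, and Irf5 was at -3.26, -3.08 and -2.77 and at -4.42, -4.60 and -3.07. For these genes the EpiSC group was split by array, and the lowest adjusted p among Oas1a, Oas1f, Oas3 and Irf5 was 0.078, that of Oas1f.

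The rest of the pathway gives the setting. Of the interferon genes themselves, 7 of 14 on the array could be tested and none passed (differences from -0.57 to 0.36), and for Ifnb1 and Ifng 0 arrays were well above background. Of 12 other signalling genes, 0 rose and 3 fell (25.0%, beside 26.5% of all genes in either direction): Ifnlr1, the interferon lambda receptor (-1.94 ± 0.31, limma, adjusted p = 0.00685), Socs3, an inhibitor of cytokine signalling (-1.16 ± 0.24), and Tyk2, a kinase bound to IFNAR1 (-0.98 ± 0.21, adjusted p = 0.0193). Jak1, the kinase shared by both receptors, was at 1.30, 1.03 and 1.80 in mES and at 1.25, 1.46 and 1.27 in EpiSC, and Usp18, the enzyme that removes ISG15, was at 2.83, 2.28 and 3.07 and at 2.80, 1.99 and 4.34. Neither passed.

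Of the 34 other interferon-induced genes, 5 fell, a share near the 14.6% of all genes called lower, and the median difference was 0.31. Those that fell furthest were Phf11d (-4.25 ± 0.57), Bst1 (-3.08 ± 0.79) and Pml, the organiser of nuclear bodies (-1.95 ± 0.29). Bst1 was above background on 2 of the 3 EpiSC arrays, its difference was -2.12 without EpiSC replicate 3 and -1.41 with the normexp correction, and it passed in 2 of the 6 fits with an array left out. It entered the fit only through the mES arrays, where it is high, so passing the threshold gives the fall no separate support. Of 30 adaptors and signalling genes of innate sensing, 6 rose and 4 fell (33.3% in all, beside 26.5% of all genes). The Toll-like receptor adaptor Tirap (1.53 ± 0.30) rose, as did Myd88, the main adaptor (0.87 ± 0.21, limma, adjusted p = 0.0271). Ly96, the partner of TLR4 (1.34 ± 0.25), and the ubiquitin ligase Traf6 (1.09 ± 0.19) rose too. Irak3, an inhibitor of that pathway (-3.45 ± 0.47), fell, as did Nlrx1 (-1.94 ± 0.44) and Sarm1 (-1.38 ± 0.21). With an array left out, Myd88 and Tyk2 passed in 2 of 6 fits (adjusted p up to 0.0863 and 0.0607), Socs3 and Nlrx1 in 3 and Tirap in 4. Mavs, the adaptor of both RNA sensors, did not pass (-0.11 ± 0.19, adjusted p = 0.68).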

How the data were processed

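Cy3-labelled total RNA of 6 cultures was read on 1-colour Agilent arrays. The deposited scanner files give a linear intensity for every spot, made with Agilent Feature Extraction 9.1.3.1 per the file headers, detrended and background-adjusted within an array without normalization across arrays. The value table of the series, an intensity deposited by the authors, equals that signal to within 0.00716 on the log2 scale and is linear, uncentred and no ratio, with column medians of 78.9, 84.9 and 68.7 (mES replicates 1 to 3) and 117, 80.25 and 82.95 (EpiSC). It held 0 columns that were not used. The sources used here name no genome build for the probes.

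Control and outlier spots were left out and 0 spots were saturated. The log2 signal was scaled by each array's 75th percentile. A probe entered if well above background on all 3 arrays of a group, and a gene was represented by its brightest entering probe. Of the 41174 probes, 22944 were named through their RefSeq accession, 4519 took the name of a probe with the same name in the files, and 13711 kept the name in the files. The comparison used limma 3.58.1 (R 4.3.3; lmFit and eBayes, two-sided), with p-values adjusted by Benjamini-Hochberg over all 20136 genes. The fit had 4 residual degrees of freedom and a median standard error of 0.24. On simulated data with 50 genes changed at each of 4 log2 sizes, the fit was tested before use. A fold called "at least" divides the EpiSC mean by a floor for mES: on each mES array, the faintest signal that is well above background or, if brighter, the gene itself.

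The members and lists were chosen with earlier results of these data known. Levels per array were to be given for genes past the threshold and for 16 receptors, factors, sensors and IFITM genes whatever their values, and of each other list for up to 3 genes a direction. Trim25, Oas1a, Irf5, Ifit1, Ifit3, Ifi202b, Ifi204, Cxcl10, Ptprc, Laptm5 and Cd68 were given values after these were seen. Replicates are numbered by accession, which pairs no samples. The labels name 3 mES lines and 2 EpiSC lines, so that the spread behind a p-value includes differences between lines. They do not say how separate the 2 EpiSC-7 cultures were. A p-value reflects only the spread among these 6 samples, part of which may be technical. The values of 2 genes are not reported here, although both are in the counts. The number of arrays limits the precision.

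The alternatives changed the background correction, the scaling, the filter on dim probes and the rule for several probes, took the value table, the slide as a random block, the position as a block, Col1a1 as a covariate and the mean of both EpiSC-7 arrays, and left out each array.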

Additional observations from a re-analysis of the deposited data

How the results depend on the processing

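As reported, 8 of 62 genes were higher and 8 lower. The median difference of the interferon genes stayed negative under all 20 alternatives, from -0.58 to -0.03. That of all genes was negative under each of them as well, from -0.28 to -0.02, so the sign is not particular to these genes. With each array left out in turn, the number of genes past the threshold ranged from 8 to 15, of those higher from 3 to 6 and of those lower from 5 to 12. The slide as a random block gave 37 genes (15 higher and 22 lower), but 57.1% of all genes passed there. In that fit arrays sharing a slide had a negative correlation (-0.68) and every slide held 1 group, which lowers the errors, and so the calls gained are no support. Normexp background correction gave 15 lower. Within position 4 there were 4 higher. Without mES replicate 2 and EpiSC replicate 3, an alternative chosen after seeing the data, 7 passed and 1 was higher. No paired analysis was possible because the labels give no replicate numbers.

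Genes whose difference changed sign had not passed the threshold. Within position 4 the differences were 0.88 for Ifi202b, 0.32 for Ifi203, 0.82 for Ifi204, 0.48 for Ifi205, 0.19 for Jak1, 0.061 for Mavs and -0.16 for Usp18. Without mES replicate 2 and EpiSC replicate 3 they were -0.74 for Ifit1, -0.59 for Ifit3, 0.092 for Irf3, -0.71 for Irf7, -0.045 for Isg20, -0.12 for Oasl2 and -0.56 for Usp18. Ifi202b was at 0.087 with the EpiSC-7 arrays averaged and at 0.045 with Col1a1 as a covariate, Irf7 at -0.051 with the slide block and Jak1 at 0.051 under median scaling. Leaving out single arrays gave ranges of -1.09 to 0.45 for Ifi202b, -1.35 to 0.19 for Ifi204, -0.19 to 0.99 for Ifit1, -0.16 to 1.71 for Ifit3, -0.66 to 0.10 for Ifitm3, -0.39 to 0.093 for Irf3, -0.28 to 0.78 for Irf7, -0.22 to 0.16 for Jak1, -0.20 to 0.039 for Mavs and -0.33 to 0.84 for Usp18. The cause was not tested. Signals near background limit Irf2, Tlr3, Gbp2b and Bst1. The normexp correction also gave smaller differences for Oasl1 (-3.20), Irak3 (-2.30), Nlrx1 (-1.29), Sarm1 (-0.74), Ly96 (0.67) and Gbp7 (1.27), all of them past the threshold.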

Other observations

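A further 12 genes on the array carry a current name of the same kind but an older name in the scanner files, and so were outside the rule, and 9 of them could be tested. Gbp7, another guanylate-binding protein, was at -4.26, -3.64 and -3.03 in mES and at -1.75, -2.00 and -0.82 in EpiSC, a rise of 2.12 ± 0.42 (limma, adjusted p = 0.0147). Ifi27, a mitochondrial protein gene induced by type I interferon, was at 5.15, 5.20 and 4.47 in mES and at 2.88, 2.98 and 2.63 in EpiSC, a fall of 2.11 on the log2 scale (SE 0.25, adjusted p = 0.00277). Both had groups that did not overlap, and the other 7 did not pass, among them Gbp4 (1.08) and Gbp6 (1.07).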
